A study of Homo sapiens with 27 samples.

Results

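The values of 54 genes of the wider androgen response of prostate cells were examined. The genes were taken by symbol from a list of known androgen-responsive genes. All 54 were found in each of the 4 deposited tables, among 19540 genes counted in 3′ UTRs, 20216 in introns, 20268 in coding exons (CDS) and 20266 in the 10 kb downstream regions. By role they were 9 genes of lipid and carbonyl metabolism, 10 of hexosamine supply, glycosylation and secretion, 3 membrane transporters, 3 genes of polyamine and glutathione metabolism, 14 of kinase, phosphatase and other signalling, 10 transcription factors and cofactors, and 5 keratin and cytoskeleton genes.

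The study asked how loss of CPSF1, a subunit of the complex that reads the poly(A) signal, altered poly(A) site use in 3 human prostate cancer cell lines. The lines were LNCaP, an androgen-dependent line, LNCaP95, which was derived from LNCaP and does not need androgen to grow, and 22Rv1, a castration-resistant line. Each carried a lentiviral pGIPZ vector with a non-silencing control shRNA (CTRL sh) or with 1 of 2 shRNAs against CPSF1 (CPSF1 sh1, CPSF1 sh2), and all groups had been selected with puromycin and then grown for 72 h. LNCaP and 22Rv1 cells were kept in RPMI 1640 with 10% FBS, and LNCaP95 cells in the phenol red-free form of that medium with 10% FBS. The labels name no added androgen in any group, and infected cells were expanded after selection. PAC-seq, which sequences the point where the poly(A) tail begins, gave 3 libraries per group and 27 in all, so each line had 3 control and 6 knockdown libraries. The study's methods call the 3 libraries of a group biological replicates.

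Androgens such as testosterone and dihydrotestosterone are steroid hormones that switch on genes for lipid synthesis, secretion, polyamine supply and cell signalling in the luminal cells of the prostate. The end of each of these transcripts is set when the cleavage and polyadenylation machinery recognises a hexamer, most often AAUAAA in the RNA, and cuts shortly after it. A read in a 3′ UTR was therefore taken as a transcript that ended in an annotated 3′ UTR of the gene. A read in an intron was taken as one that ended early, and a read in the 10 kb downstream region as one that ended beyond the gene. These readings were not tested. A 3′ UTR count pools the annotated 3′ UTRs of a gene, and a downstream read can come from another gene of that strand. An intron count covers all of a gene outside its CDS and 3′ UTRs, so 5′ UTRs are included.

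Libraries held 3452413 to 12425417 reads over the 4 tables, of which 170330 to 728430 lay in 10 kb downstream regions. CPSF1 3′ UTR reads fell in LNCaP (log2 fold change -1.19, SE 0.17, adjusted p = 8.31e-05), in LNCaP95 (log2 fold change -1.05, SE 0.18, adjusted p = 0.000301) and in 22Rv1 (log2 fold change -0.73, SE 0.14, adjusted p = 0.0164). Levels are given in CPM, that is reads relative to the library's total in that table, scaled with TMM factors over the 27 libraries, and a change was called at an adjusted p below 0.05 in edgeR's quasi-likelihood test over all genes of a table. The 8 luminal prostate markers counted here, among them KLK3, HOXB13 and FOXA1, had reads in every line. Their sum, in CPM over the reads of all 4 tables, was 2008 to 2258 in LNCaP controls and 1441 to 1598 after knockdown, 4236 to 4536 and 1973 to 2892 in LNCaP95, and for 22Rv1 913 to 1026 and 861 to 934. KLK3 made up most of the difference, with 773 to 912 CPM in LNCaP controls and 192 to 253 after knockdown, and 2542 to 2684 and 667 to 1264 in LNCaP95. TMPRSS2 also lay lower after knockdown in LNCaP and LNCaP95, and in 22Rv1 at 11.30 to 15.45 CPM in controls and 6.39 to 11.29 after knockdown. HOXB13 lay lower in LNCaP alone, at 154.8 to 189.8 CPM in controls and 118.9 to 149.3 after knockdown. The ranges of KLK2, KRT8, KRT18, FOXA1 and SLC45A3 overlapped between control and knockdown in every line. The 18 markers of basal, fibroblast, endothelial, leukocyte and neuroendocrine cells summed to between 0.869 and 56.6 per list and library, with the highest sums in 22Rv1 for neuroendocrine markers, most of it SYP. The leukocyte sum moved with knockdown in LNCaP95, from 4.06 to 6.15 in controls to 9.02 to 16.2, most of it CD68, while PTPRC and CD3E reached at most 1.10 and 1.00 CPM in that line. In bulk libraries such as these, fewer cells of a kind and less RNA per cell cannot be told apart.

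The ends of 5 members are shown here because their downstream reads moved in 2 or more lines. Each stretch is 30 bases of the GRCh37 genome on the minus strand of the gene, read 5′ to 3′, with the poly(A) signal hexamer nearest the annotated end in capitals.
ABCC4, chr13:95672095-95672124: aaattcaattgaAATAAAtgatagttttca
ADAMTS1, chr21:28208077-28208106: tatataccataaATTAAAtggaaagagctt
TSC22D1, chr13:45007665-45007694: ttgtcaactttcAATAAAgcatataaatgt
APPBP2, chr17:58520522-58520551: aattattgacctAATAAAtatagtgttcct
FADS1, chr11:61567104-61567133: atgaagttgaaaAATAAAgttaattttgac
The hexamer was AATAAA in ABCC4, TSC22D1, APPBP2 and FADS1 and the variant ATTAAA in ADAMTS1. Within the last 50 bases before the annotated end, searched on the strand of the gene, AATAAA was present in 40 of the 54 members (74.1%) and in 59.45% of 19524 genes with a 3′ UTR on the main chromosomes. A further 7 members (13.0%) held ATTAAA without AATAAA, against 13.5% of all genes, and 7 members held neither in that window. This describes the letters at the ends and does not say which site was used.

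The members made up 0.541 to 0.596% of all reads in LNCaP controls, 0.865 to 0.918% in LNCaP95 controls and 0.476 to 0.485% in 22Rv1 controls. Their 3′ UTR levels differed widely between the lines before any knockdown. Of 51 members that passed the filter of a mean above 2 CPM over the 9 control libraries, 21 were higher and 9 lower in LNCaP95 than in LNCaP, where 19.1% of all genes were higher, 20.2% lower and 39.3% called. Against LNCaP, 15 members were higher and 22 lower in 22Rv1 (23.9% of all genes higher, 23.2% lower, 47.2% called). Between 22Rv1 and LNCaP95 the counts were 14 higher and 28 lower (28.1% of all genes higher, 26.5% lower, 54.6% called), and the median member was -1.02 on the log2 scale against 0.02 for all genes. MAK, a kinase of germ and prostate cells, MERTK, a receptor tyrosine kinase, and SGK1, a steroid-induced kinase, had too few 3′ UTR reads for this comparison. These 3 comparisons share their control libraries.

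Among lipid and carbonyl genes the widest gap was in HPGD, which degrades prostaglandins. Its 3′ UTR level was 9.34, 2.43 and 1.77 CPM in the LNCaP control libraries, 563, 735 and 569.9 CPM in LNCaP95 and 80.5, 123 and 119.5 CPM in 22Rv1. The lines did not overlap, and LNCaP95 exceeded LNCaP by 7.14 on the log2 scale (SE 0.37, adjusted p = 3.95e-10). LNCaP control library 1 stood above the other 2 for HPGD, and also for KRT19, whose LNCaP values were 8.47, 2.21 and 2.28 CPM. SORD, which oxidises sorbitol to fructose, ran the other way at 1091, 1168 and 1173 CPM in LNCaP, 558, 524 and 563 CPM in LNCaP95 and 162, 122 and 128 CPM in 22Rv1. SORD has a near-identical pseudogene copy, so its level is uncertain. ABHD2, a serine hydrolase, stood at 1395, 1307 and 1192 CPM in LNCaP and 99.7, 85.5 and 94.3 CPM in 22Rv1, a difference of -3.81 on the log2 scale (SE 0.15, adjusted p = 1.21e-11). AZGP1, a secreted lipid-mobilising glycoprotein, was highest in 22Rv1 at 102, 73.97 and 73.8 CPM against 21.4, 13.8 and 27.4 CPM in LNCaP95 (2.00 on the log2 scale (SE 0.23, adjusted p = 1.72e-06)). The AZGP1 difference between LNCaP95 and LNCaP was not called (0.28 on the log2 scale, adjusted p = 0.397).

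ADAMTS1, a secreted metalloproteinase, fell stepwise across the lines, with 136, 152 and 158 CPM in LNCaP, 42.9, 55.3 and 45.9 CPM in LNCaP95 and 5.11, 3.65 and 3.58 CPM in 22Rv1. All 3 pairs were called. ABCC4, an exporter of cyclic nucleotides and prostaglandins, had 80.9, 92.9 and 76.99 CPM in LNCaP and 109.95, 123 and 113 CPM in LNCaP95. In 22Rv1 it had 2.56, 5.48 and 2.52 CPM, below LNCaP (-4.55 on the log2 scale (SE 0.25, adjusted p = 3.72e-10)). Its difference between LNCaP95 and LNCaP was not called (0.44 on the log2 scale (SE 0.17, adjusted p = 0.0547)).

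Signalling genes differed widely between the lines. LIFR, the receptor subunit for leukaemia inhibitory factor, had 12.3, 8.82 and 10.4 CPM in LNCaP, 76.99, 76.1 and 65.5 CPM in LNCaP95 and 0, 1.83 and 3.79 CPM in 22Rv1, with 24 reads in all in the last. AKAP12, a scaffold that anchors protein kinase A, was low in LNCaP at 3.21, 1.10 and 3.29 CPM and higher in LNCaP95 at 30.7, 41.5 and 28.6 CPM (3.73 on the log2 scale (SE 0.40, adjusted p = 1.78e-06)). IQGAP2, a cytoskeletal scaffold, had 45.7, 35.4 and 52.95 CPM in LNCaP95 and 3.83, 3.65 and 2.74 CPM in 22Rv1. CAMKK2, the calcium-dependent kinase upstream of AMPK, was lower in LNCaP95 (20.2, 26.1 and 24.7 CPM) than in LNCaP (59.9, 58.7 and 64.3 CPM) or 22Rv1 (63.9, 45.4 and 46.7 CPM). PTK2B, a calcium-activated tyrosine kinase, was also lowest in LNCaP95, with 8.80, 6.78 and 7.21 CPM in LNCaP95, 16.6, 21.2 and 20.01 CPM in LNCaP and 46.7, 36.2 and 31.6 CPM in 22Rv1.

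Of the transcription regulators, ELL2, an elongation factor of RNA polymerase II, and ZBTB10, a zinc finger repressor, rose from LNCaP through LNCaP95 to 22Rv1. ELL2 stood at 16.6, 13.7 and 14.7 CPM, 57.3, 70.4 and 72.7 CPM and 201, 185 and 202 CPM in that order. ZBTB10 stood at 38.5, 38.8 and 44.6 CPM, 70.8, 76.3 and 70.9 CPM and 355, 425 and 399.9 CPM. No pair of lines overlapped for either gene, and all pairs were called. ZMIZ1, a transcriptional coactivator, was lower in LNCaP95 (9.93, 16.5 and 9.89 CPM) than in LNCaP (56.1, 73.03 and 55.7 CPM). TSC22D1, a leucine zipper regulator, reached 364, 410.2 and 333 CPM in LNCaP95 against 56.6, 86.3 and 66.4 CPM in LNCaP and 16.6, 30.7 and 32.8 CPM in 22Rv1. The simple-epithelial keratin KRT19 was called higher in LNCaP95 than in LNCaP and higher again in 22Rv1, at 31.5, 22.5 and 24.1 and 114, 125 and 104 CPM. The plot of control libraries shows 8 of these genes.

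**Figure D1:**
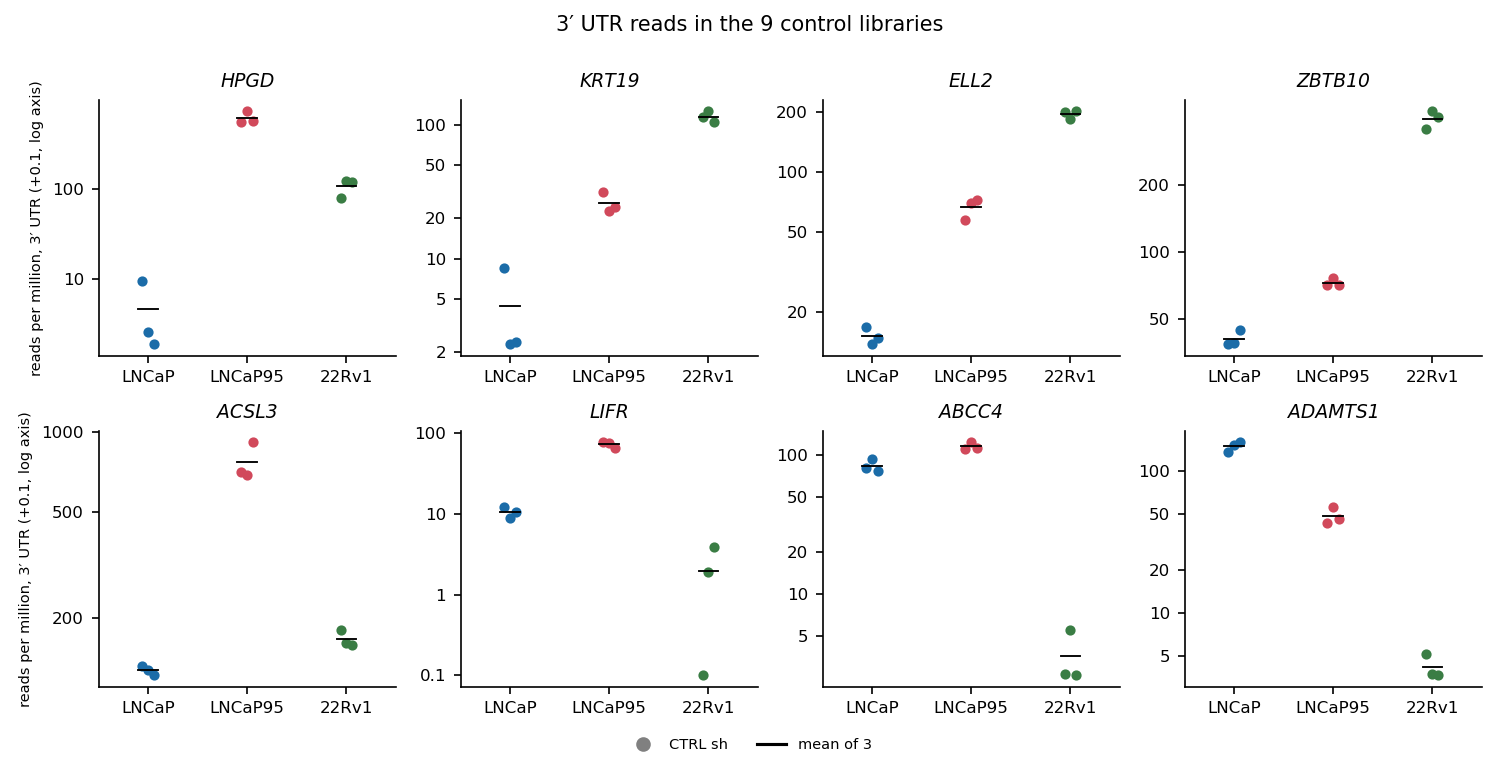
3′ UTR level in CPM (plus 0.1, log axis) of 8 members in the 9 control libraries, by cell line. Each point is a library and each bar the mean of 3. HPGD, ACSL3 and LIFR were highest in LNCaP95, KRT19, ELL2 and ZBTB10 in 22Rv1, and ABCC4 and ADAMTS1 were lowest in 22Rv1.

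After CPSF1 knockdown the 3′ UTR reads of the members moved in different directions in LNCaP and LNCaP95. In LNCaP, 14 of 52 members tested rose and 4 fell, where 8.24% of all genes rose, 10.1% fell and 18.3% were called in either direction. The median member change was 0.23 on the log2 scale against 0.02 for all genes. In LNCaP95, 5 of 52 rose and 15 fell, where 15.2% of all genes rose, 15.2% fell and 30.5% were called in all, and the median member change was -0.24 against 0.01. In 22Rv1, 0 of 51 rose and 1 fell, where 0.678% of all genes rose, 0.791% fell and 1.47% were called. There, 13 members had an unadjusted p below 0.05, and DESeq2 called 6 members, 3 higher and 3 lower. Without TMM factors, which raises the median change of all genes by 0.11 in LNCaP and 0.15 in LNCaP95, the splits were 19 higher and 3 lower in LNCaP and 10 higher and 11 lower in LNCaP95. Without the LNCaP control library 1 the LNCaP count was 11 in place of 18, and with CPSF1 sh1 alone the LNCaP95 count was 13 in place of 20.

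Across the 9 lipid and carbonyl genes, 3 rose and 2 fell in LNCaP, and 4 fell in LNCaP95. FADS1, the delta-5 fatty acid desaturase, fell in both. In LNCaP it had 249.9, 227 and 247 CPM in the control libraries and 99.5 to 143 CPM, median 113, in the knockdown libraries, and the groups did not overlap (log2 fold change -1.06, SE 0.13, adjusted p = 1.62e-05). In LNCaP95 it had 395, 264 and 342 CPM in the control libraries and 117 to 216 CPM, median 154, in the knockdown libraries (log2 fold change -1.05, SE 0.16, adjusted p = 0.000115). In 22Rv1 the difference was not called, with 665, 396 and 412 CPM in the control libraries and 220.4 to 446 CPM, median 255, in the knockdown libraries (log2 fold change -0.81, SE 0.21, adjusted p = 0.0671). ABHD2 fell in LNCaP, where it had 1395, 1307 and 1192 CPM in the control libraries and 762 to 998 CPM, median 913, in the knockdown libraries (log2 fold change -0.55, SE 0.12, adjusted p = 0.00295). It fell further in LNCaP95, with 1049, 1044 and 912 CPM in the control libraries and 379 to 537 CPM, median 424, in the knockdown libraries (log2 fold change -1.16, SE 0.13, adjusted p = 3.15e-06). ELOVL5, which elongates polyunsaturated fatty acids, fell in LNCaP95 and was not called in the other lines, with 208, 269.5 and 243 CPM in the control libraries and 109.7 to 139.7 CPM, median 125, in the knockdown libraries (log2 fold change -0.93, SE 0.13, adjusted p = 3.24e-05).

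ACSL3, DBI and GPD1L rose in LNCaP. ACSL3, which activates long-chain fatty acids for lipid droplets, had 131, 127 and 122 CPM in the control libraries and 246 to 294 CPM, median 277, in the knockdown libraries in LNCaP, with no overlap (log2 fold change 1.12, SE 0.12, adjusted p = 4.13e-06). Its change in LNCaP95 was -0.11 on the log2 scale (adjusted p = 0.571), and the difference in change between these lines was called. DBI, the acyl-CoA binding protein, rose in LNCaP (log2 fold change 0.74, SE 0.12, adjusted p = 0.000254), with every knockdown library above every control. DBI has processed pseudogenes, as do KRT8, KRT18, SMS and PA2G4, and the handling of reads that fit several places is not given in the sources used here, so these values are uncertain. GPD1L, a glycerol-3-phosphate dehydrogenase, was called in opposite directions in the LNCaP pair of lines. It had 6.72, 8.38 and 7.85 CPM in the control libraries and 7.10 to 20.5 CPM, median 13.6, in the knockdown libraries in LNCaP (log2 fold change 0.90, SE 0.28, adjusted p = 0.0323) and 47.8, 48.9 and 36.5 CPM in the control libraries and 20.5 to 33.7 CPM, median 25.97, in the knockdown libraries in LNCaP95 (log2 fold change -0.76, SE 0.17, adjusted p = 0.00222). The LNCaP rise of GPD1L was lost without any 1 of the 3 control libraries, without CPSF1 sh1 library 1 or 2, with the replicate block and with CPSF1 sh2 alone, and the LNCaP95 fall with CPSF1 sh1 alone.

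Of the 10 hexosamine and secretory genes, 1 rose and 1 fell in LNCaP, and 1 rose and 2 fell in LNCaP95. PGM3, an enzyme of UDP-N-acetylglucosamine synthesis, fell in both lines. It had 56.4, 55.8 and 54.7 CPM in the control libraries and 27.8 to 46.6 CPM, median 40.9, in the knockdown libraries in LNCaP (log2 fold change -0.51, SE 0.15, adjusted p = 0.0242) and 53.4, 63.8 and 86.5 CPM in the control libraries and 35.6 to 49.3 CPM, median 42.1, in the knockdown libraries in LNCaP95 (log2 fold change -0.68, SE 0.16, adjusted p = 0.00327). The LNCaP call of PGM3 was lost without any 1 of the 3 control libraries, without TMM factors and with CPSF1 sh1 alone, and the LNCaP95 call without control library 3 and with CPSF1 sh1 alone. B2M, the light chain of MHC class I, rose in both, by 0.73 in LNCaP (adjusted p = 0.0196) and 0.42 in LNCaP95 (adjusted p = 0.0408) on the log2 scale, with control and knockdown libraries overlapping in each. The LNCaP95 call of B2M was lost with either shRNA alone and without any 1 of 6 of the 9 libraries, and the LNCaP call with CPSF1 sh2 alone and without control library 1 or 3. TPD52, a vesicle-trafficking protein amplified in prostate cancer, fell in LNCaP95 from 183, 190.5 and 160.3 CPM to 78.96 to 142 (median 100.3) CPM (log2 fold change -0.74, SE 0.15, adjusted p = 0.0011). UAP1, B4GALT1, LMAN1, SEC24D, SPCS3, UBE2J1 and ADAMTS1 were not called in 3′ UTRs in any line.

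The 3 transporters were split. SLC26A2, a sulfate transporter, rose in LNCaP (28.6, 25.4 and 25.1 CPM in the control libraries and 32.8 to 56.9 CPM, median 49.2, in the knockdown libraries, log2 fold change 0.85, SE 0.17, adjusted p = 0.00215), and ABCC4 fell in LNCaP95 (109.95, 123 and 113 CPM in the control libraries and 56.97 to 111 CPM, median 74.1, in the knockdown libraries, log2 fold change -0.56, SE 0.17, adjusted p = 0.0153). The ABCC4 call was lost without control library 2, without TMM factors and with CPSF1 sh1 alone. Among polyamine and glutathione genes, GSR, glutathione reductase, rose in both LNCaP (log2 fold change 0.97, SE 0.15, adjusted p = 0.000187) and LNCaP95 (log2 fold change 0.62, SE 0.20, adjusted p = 0.0261). Its levels were 65.7, 67.95 and 64.1 CPM in LNCaP controls and 108 to 157 (median 124) CPM after knockdown. The LNCaP95 call of GSR was lost without control library 1 or 3 or CPSF1 sh2 library 3. SMS, spermine synthase, rose in LNCaP (log2 fold change 0.53, SE 0.14, adjusted p = 0.01), where 5 of 6 knockdown libraries exceeded all controls. That call was lost without control library 1 and with CPSF1 sh2 alone. SAT1, which acetylates polyamines for export, fell in LNCaP95, with 100.2, 119.9 and 117 CPM in the control libraries and 38.6 to 82.8 CPM, median 58.6, in the knockdown libraries and no overlap (log2 fold change -0.93, SE 0.18, adjusted p = 0.000772).

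In the signalling group, 3 of 12 members tested rose and 1 fell in LNCaP, and 1 rose and 4 fell in LNCaP95. HERC3, a ubiquitin ligase, gave the widest split between the lines. In LNCaP it rose (16.9, 21.6 and 26.6 CPM in the control libraries and 30.6 to 96.7 CPM, median 59.5, in the knockdown libraries, log2 fold change 1.47, SE 0.28, adjusted p = 0.00122). In LNCaP95 it fell (20.4, 22.7 and 12.4 CPM in the control libraries and 4.66 to 10.2 CPM, median 7.94, in the knockdown libraries, log2 fold change -1.21, SE 0.24, adjusted p = 0.00107). STK39, a kinase that controls chloride cotransporters, was also split, with 220.4, 187 and 218 CPM in the control libraries and 258 to 318 CPM, median 298, in the knockdown libraries in LNCaP (log2 fold change 0.50, SE 0.12, adjusted p = 0.00655) and 527, 554 and 483 CPM in the control libraries and 338 to 419.7 CPM, median 398, in the knockdown libraries in LNCaP95 (log2 fold change -0.41, SE 0.12, adjusted p = 0.0133). The LNCaP95 fall of STK39 was lost without control library 1 or 2, without TMM factors and with CPSF1 sh1 alone. Its LNCaP rise was lost without control library 2. SGK1 was called higher in both lines but on 0 to 8 control reads per LNCaP library and 2 to 10 per LNCaP95 library (0.292, 0 and 2.03 and 1.87, 1.70 and 0.412 CPM), so its size is poorly fixed. The LNCaP call of SGK1 was lost in 6 of 9 fits with 1 library left out. Its LNCaP95 call was lost without control library 3 and with CPSF1 sh1 alone. CAMKK2 fell in LNCaP (59.9, 58.7 and 64.3 CPM in the control libraries and 29.7 to 62.8 CPM, median 36.6, in the knockdown libraries, log2 fold change -0.67, SE 0.19, adjusted p = 0.0196), and 1 knockdown library overlapped the controls. That call was lost without any 1 of the 3 control libraries and with CPSF1 sh2 alone. TNFAIP8, a regulator of cell survival, and GNAI3, an inhibitory G protein subunit, fell in LNCaP95 by -0.87 and -0.62 on the log2 scale.

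Of the 10 transcription factors and cofactors, 3 rose in LNCaP, and 2 rose and 2 fell in LNCaP95. MAF, a leucine zipper transcription factor, gave the highest change of any member in LNCaP 3′ UTRs. It had 24.2, 20.96 and 19.5 CPM in the control libraries and 105 to 186 CPM, median 167, in the knockdown libraries, with the groups far apart (log2 fold change 2.88, SE 0.19, adjusted p = 1.47e-08). In LNCaP95, where MAF started higher, it had 45.1, 55.7 and 50.9 CPM in the control libraries and 62.2 to 114 CPM, median 96.4, in the knockdown libraries (log2 fold change 0.91, SE 0.18, adjusted p = 0.000986). In 22Rv1 it had 3.20, 13.1 and 9.26 CPM in the control libraries and 13.4 to 21.5 CPM, median 16.7, in the knockdown libraries and was not called (log2 fold change 0.88, SE 0.28, adjusted p = 0.134). ELL2 rose in LNCaP, with 16.6, 13.7 and 14.7 CPM in the control libraries and 38.5 to 55.1 CPM, median 49.2, in the knockdown libraries (log2 fold change 1.66, SE 0.18, adjusted p = 4.53e-06). ELL2 was the 1 member called in 22Rv1, where it fell, with 201, 185 and 202 CPM in the control libraries and 129 to 152 CPM, median 136, in the knockdown libraries (log2 fold change -0.52, SE 0.11, adjusted p = 0.0244). That call was lost without 22Rv1 control library 2 or 3, CPSF1 sh1 library 3 or CPSF1 sh2 library 2 or 3, and with either shRNA alone. ARID5B, a chromatin-binding coactivator, rose in LNCaP95, with 17.2, 19.3 and 12.98 CPM in the control libraries and 25.2 to 59.97 CPM, median 43.5, in the knockdown libraries (log2 fold change 1.42, SE 0.25, adjusted p = 0.000315). ZBTB10 was split like HERC3, up in LNCaP (38.5, 38.8 and 44.6 CPM in the control libraries and 52.4 to 75.3 CPM, median 64.1, in the knockdown libraries, log2 fold change 0.69, SE 0.15, adjusted p = 0.00333) and down in LNCaP95 (70.8, 76.3 and 70.9 CPM in the control libraries and 34.98 to 41.01 CPM, median 40.02, in the knockdown libraries, log2 fold change -0.87, SE 0.13, adjusted p = 5.39e-05). Of the keratin and cytoskeleton genes, PDLIM5 rose in LNCaP (0.42, adjusted p = 0.0435) and KRT8 fell in LNCaP95 (-0.37, adjusted p = 0.0348), and both calls were lost with the replicate block. The PDLIM5 call was also lost with CPSF1 sh2 alone and in 7 of 9 fits with 1 library left out. That of KRT8 was also lost without TMM factors, with either shRNA alone and in 3 of 9 such fits. KRT8 and KRT18 are also among the luminal markers, and the part of the marker differences in the member changes was not tested.

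**Figure D2:**
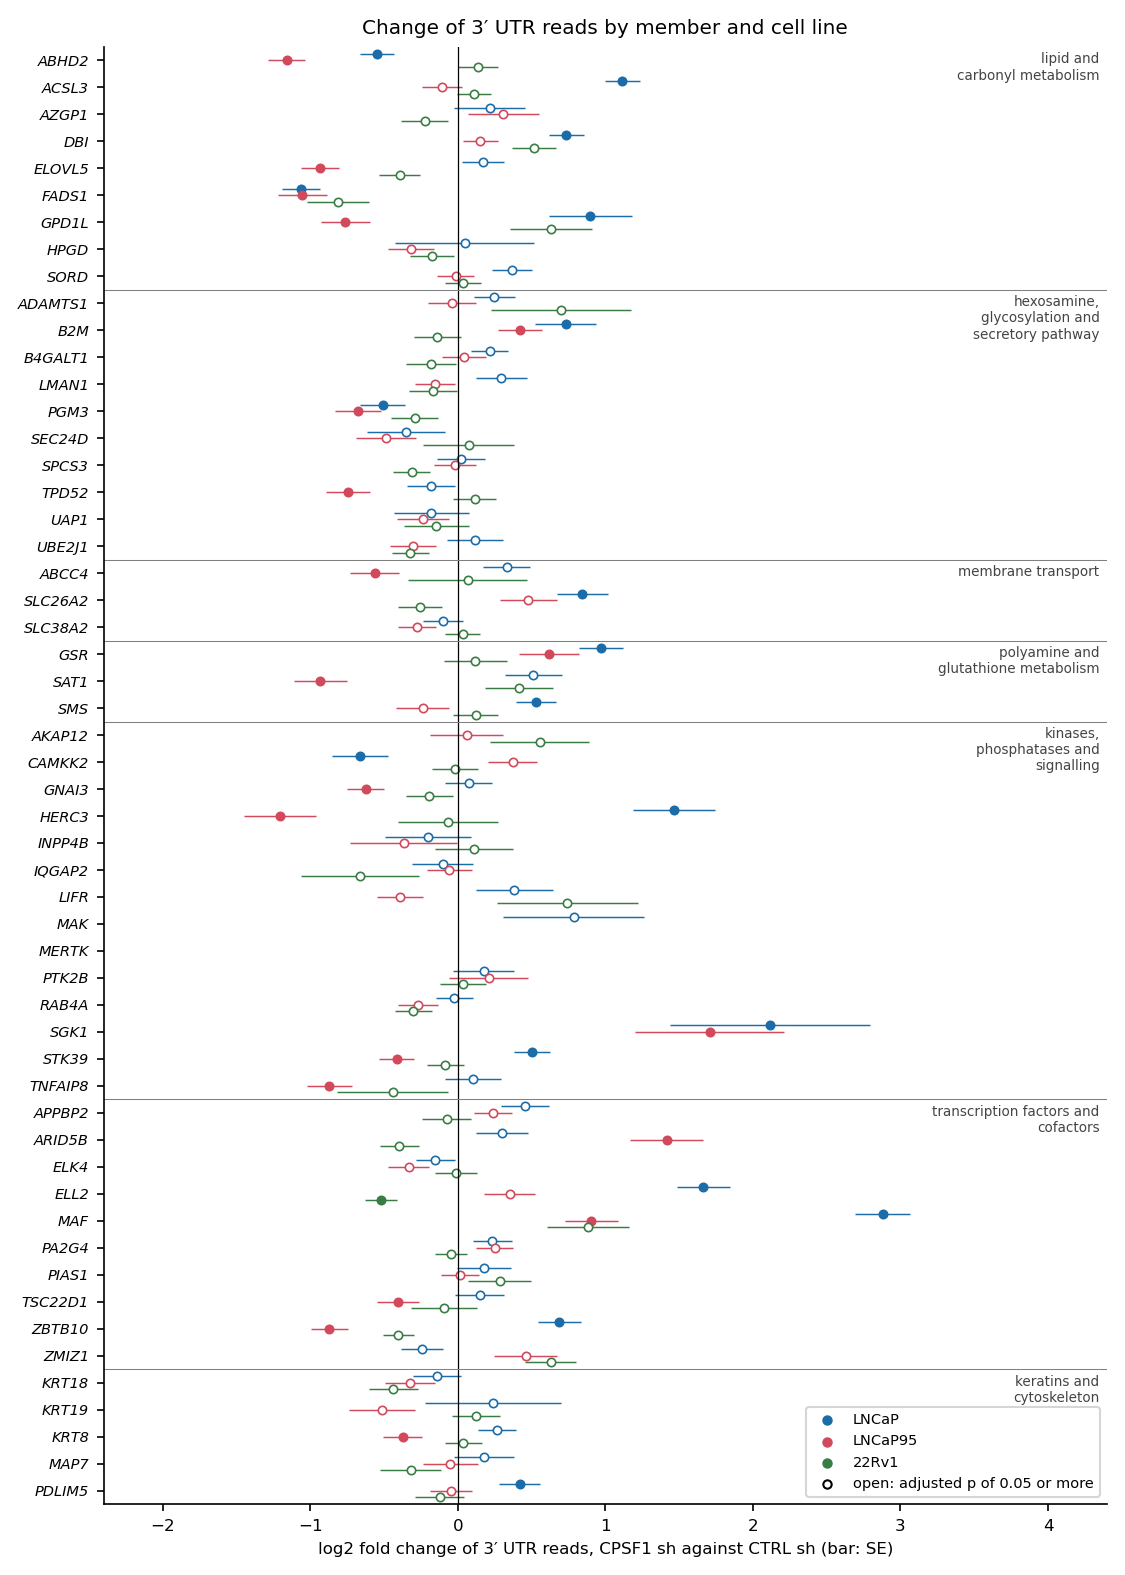
Log2 fold change of 3′ UTR reads after CPSF1 knockdown for each member tested, by role (rows) and cell line (colour), with SE bars. Filled points passed an adjusted p below 0.05. Blue LNCaP points lie mostly to the right and red LNCaP95 points mostly to the left, and 1 filled green point (ELL2) marks 22Rv1.

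**Figure D3:**
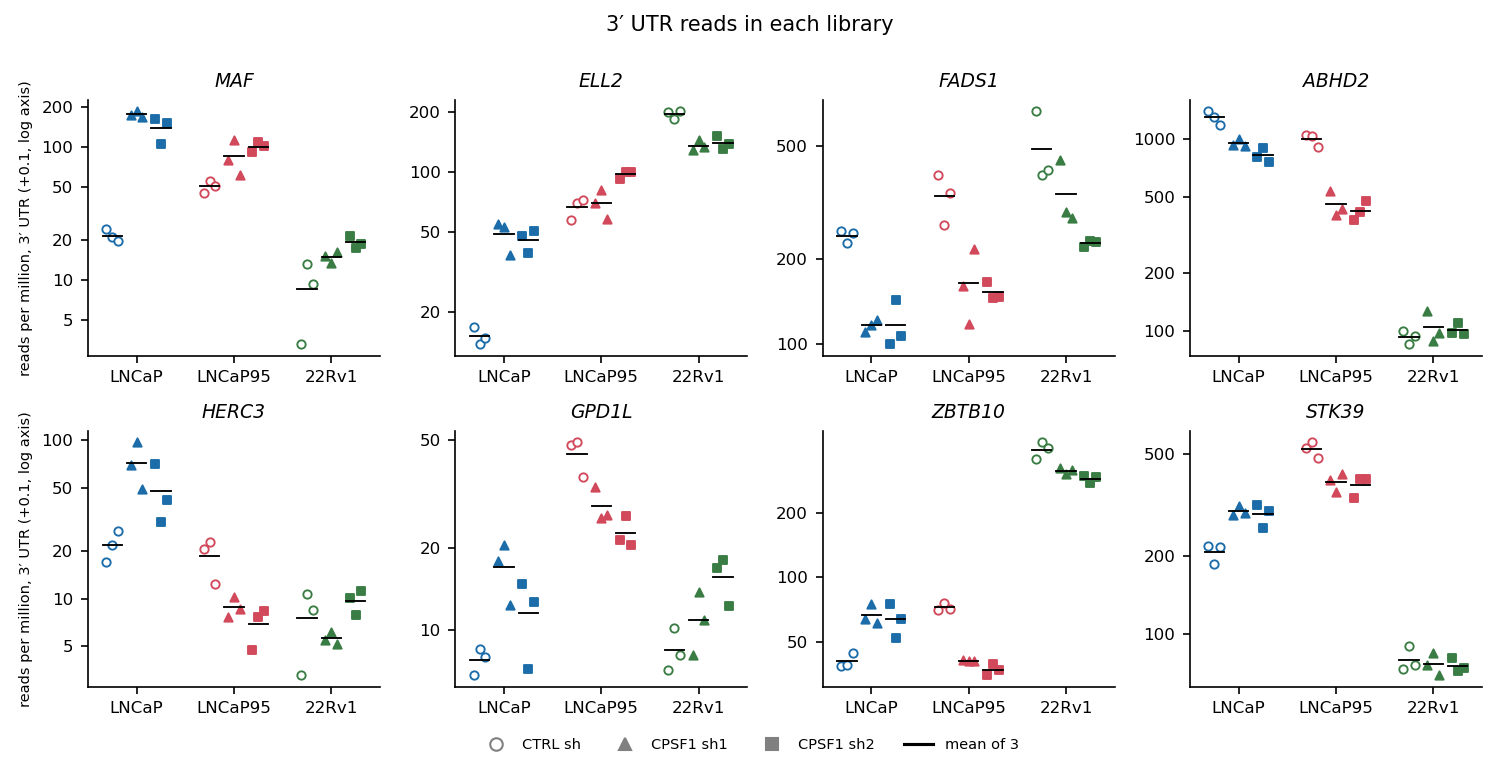
3′ UTR level in CPM (plus 0.1, log axis) of 8 members in each of the 27 libraries, by cell line and shRNA. Bars are means of 3. MAF and ELL2 rose in LNCaP, FADS1 and ABHD2 fell in LNCaP and LNCaP95, and HERC3, GPD1L, ZBTB10 and STK39 rose in LNCaP and fell in LNCaP95.

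Calls in LNCaP and LNCaP95, which share no library, had 11 members in common, or 61.1% of the LNCaP calls and 55% of the LNCaP95 calls. Over all genes, 949 were called in both, or 47% of the LNCaP calls and 27.6% of the LNCaP95 calls, and 65 of them went in opposite directions. MAF, GSR, B2M and SGK1 rose in both, FADS1, ABHD2 and PGM3 fell in both, and HERC3, GPD1L, ZBTB10 and STK39 went in opposite directions. A test of the difference in knockdown effect between the lines called 18 of 52 members, 2 with the higher and 16 with the lower change in LNCaP95, where 5.17% of all genes were higher, 4.41% lower and 9.58% called. HERC3 differed by -2.66 on the log2 scale (SE 0.41, adjusted p = 3.97e-05). MAF differed by -1.96 on the log2 scale (SE 0.28, adjusted p = 1.25e-05), GPD1L by -1.65 on the log2 scale (SE 0.33, adjusted p = 0.00117) and ZBTB10 by -1.55 on the log2 scale (SE 0.16, adjusted p = 6.14e-08). ARID5B and CAMKK2 were the 2 with the higher change in LNCaP95. The effect in 22Rv1 differed from that in LNCaP for 9 members, 2 higher and 7 lower (3.13% of all genes higher, 1.98% lower, 5.11% called), led by ELL2 (-2.16 on the log2 scale (SE 0.22, adjusted p = 7.54e-08)). It differed from that in LNCaP95 for 7 members, 5 higher and 2 lower (5.31% of all genes higher, 5.39% lower, 10.7% called, and 3 higher and 3 lower without TMM factors), led by ARID5B (-1.80 on the log2 scale (SE 0.28, adjusted p = 6.06e-05)).

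Intron reads, taken as a sign of transcripts that ended early, were tested in the same way. In LNCaP, 8 of 51 members rose and 3 fell, where 8.7% of all genes rose, 5.62% fell and 14.3% were called. In LNCaP95, 5 of 51 rose and 9 fell (13% of all genes rose, 10.8% fell, 23.8% called), and in 22Rv1 1 rose and 1 fell (2.62% rose, 1.75% fell, 4.37% called). With library sizes summed over the 4 tables, which lower the median intron change of all genes in LNCaP by 0.28 on the log2 scale and raise it in 22Rv1 by 0.20, the LNCaP split became 3 higher and 8 lower and that in 22Rv1 2 higher and 0 lower.

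SLC38A2, a transporter of neutral amino acids, had the largest fall of intron reads in LNCaP95. It had 236, 166 and 245 CPM in the control libraries and 24.2 to 38.6 CPM, median 29.3, in the knockdown libraries, so the groups were far apart (log2 fold change -2.81, SE 0.17, adjusted p = 1.34e-12). In LNCaP its controls had 40.7, 47.7 and 39.6 CPM and the knockdown libraries 32.1 to 59.1 (median 36.2) CPM, close to the LNCaP95 level after knockdown. Introns took 38.6, 27.6 and 37.2% of all SLC38A2 reads in the LNCaP95 controls and 6.26 to 10.1% in the 6 knockdown libraries. The 3′ UTR reads of SLC38A2 in LNCaP95 were 158, 171 and 185 CPM in controls and 123 to 169 (median 136) CPM after knockdown, a difference that was not called (adjusted p = 0.109). The change of the intron to 3′ UTR ratio was log2 ratio change -2.53, SE 0.23, adjusted p = 2.01e-07.

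MAF introns rose in LNCaP (37.8, 16.7 and 27.3 CPM in the control libraries and 92.6 to 189 CPM, median 137, in the knockdown libraries, log2 fold change 2.41, SE 0.22, adjusted p = 1.42e-09) and in LNCaP95 (log2 fold change 1.30, SE 0.28, adjusted p = 0.00103). HERC3 introns rose in LNCaP (log2 fold change 1.13, SE 0.15, adjusted p = 1.62e-06), as did those of ACSL3 (log2 fold change 0.86, SE 0.14, adjusted p = 3.74e-05). ABHD2 introns fell in LNCaP, with 624, 774 and 582 CPM in the control libraries and 273 to 351 CPM, median 332, in the knockdown libraries (log2 fold change -0.98, SE 0.12, adjusted p = 7.27e-07), and in LNCaP95 (log2 fold change -1.04, SE 0.15, adjusted p = 6.15e-06). CAMKK2 and SEC24D, a coat protein of secretory vesicles, fell in LNCaP (log2 fold changes -0.66 and -0.55). Both calls were lost with CPSF1 sh2 alone and without control library 1. That of SEC24D was also lost without control library 2 or CPSF1 sh1 library 3. In LNCaP95, SAT1 fell with 39.6, 27.2 and 28.01 CPM in the control libraries and 9.36 to 19.1 CPM, median 12.97, in the knockdown libraries (log2 fold change -1.24, SE 0.25, adjusted p = 0.000518), and LIFR fell with 82.7, 78.4 and 116 CPM in the control libraries and 36.9 to 49.3 CPM, median 42.2, in the knockdown libraries (log2 fold change -1.12, SE 0.17, adjusted p = 1.14e-05). ARID5B introns rose in LNCaP95, with 100.4, 107 and 96.2 CPM in the control libraries and 132 to 240.1 CPM, median 201, in the knockdown libraries (log2 fold change 0.91, SE 0.18, adjusted p = 0.000358). ADAMTS1 introns were called higher in LNCaP95 on 1 control read and 35 knockdown reads in all, a ratio of 19.3 with a 95% counting interval of 3.25 to 785. In 22Rv1, ZMIZ1 introns rose (47.9, 52.4 and 53.5 CPM in the control libraries and 76.2 to 96.98 CPM, median 80.2, in the knockdown libraries, log2 fold change 0.67, SE 0.14, adjusted p = 0.00391) and ELL2 introns fell (349, 264 and 269.8 CPM in the control libraries and 173 to 233 CPM, median 191, in the knockdown libraries, log2 fold change -0.59, SE 0.12, adjusted p = 0.00533). B2M introns were called lower in LNCaP95 (log2 fold change -0.61, SE 0.22, adjusted p = 0.0484), a call lost under each of 7 other settings and when any 1 of 6 of the 9 libraries was left out. With CPSF1 sh2 alone, 5 members in place of 11 were called in LNCaP introns, and with CPSF1 sh1 alone 8 in place of 14 in LNCaP95.

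**Figure D4:**
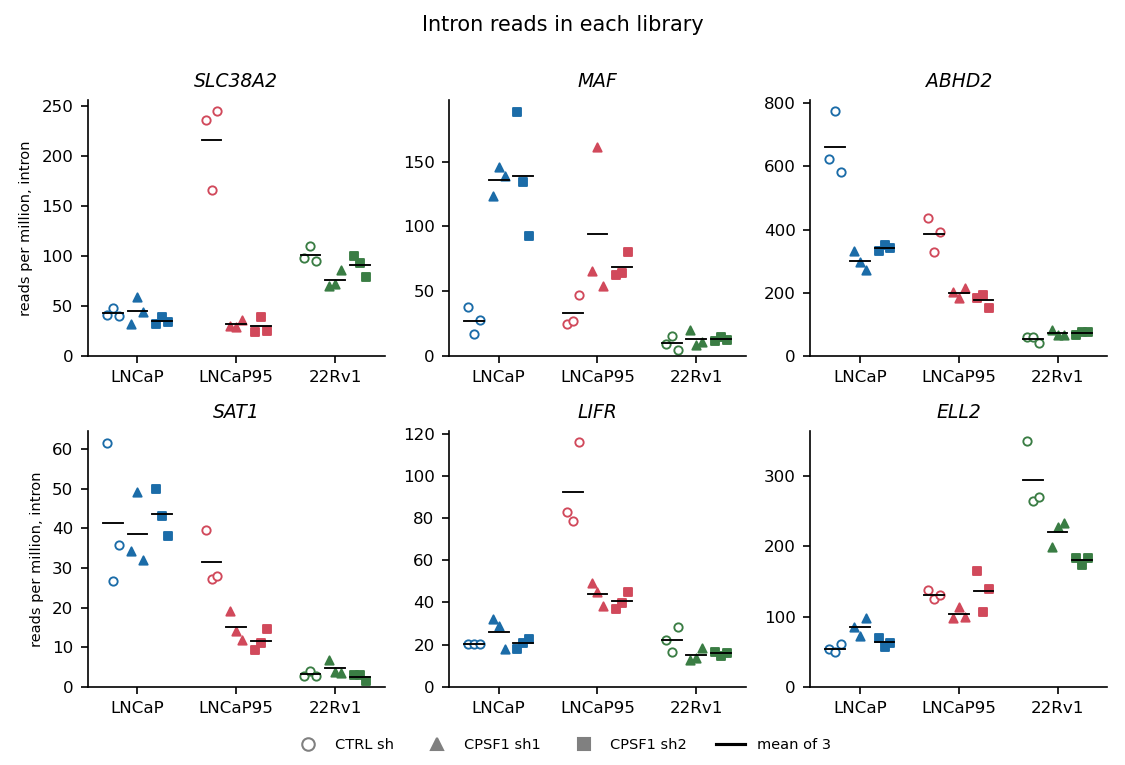
Intron level in CPM of 6 members in each of the 27 libraries, by cell line and shRNA, on linear axes from 0. Bars are means of 3. SLC38A2 fell in LNCaP95 and was not called in the other lines, MAF rose in LNCaP and LNCaP95, ABHD2 fell in both, SAT1 and LIFR fell in LNCaP95, and ELL2 fell in 22Rv1.

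The ratio of intron to 3′ UTR reads changed for few members. In LNCaP it fell for ELL2 (log2 ratio change -1.14, SE 0.27, adjusted p = 0.0132) and GSR (log2 ratio change -1.05, SE 0.23, adjusted p = 0.00796) and rose for 0 of 49 (2.39% of all genes rose, 1.29% fell, 3.69% called). In LNCaP95 it rose for 5 and fell for 5 of 49 (5.19% of all genes rose, 8.95% fell, 14.1% called), with the rises in TPD52, TSC22D1, FADS1, INPP4B and ADAMTS1 and the falls in SLC38A2, SGK1, B2M, LIFR and APPBP2. The calls of LIFR and APPBP2 were each lost under all 4 other settings and without any 1 of 7 of the 9 libraries. That of TPD52 was lost under 3 of the 4 settings and that of INPP4B, TSC22D1 and B2M under 2, whereas that of SLC38A2 held under all 4 and without each library. In 22Rv1 edgeR called 0 of 48 (0.422% of all genes called), with 5 at an unadjusted p below 0.05, and no other tool was run on the ratios.

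Reads in the 10 kb downstream region gave the highest log2 fold changes of the 3 kinds of region. In LNCaP, 4 of 48 members rose and 4 fell, where 9.52% of all genes rose, 5.2% fell and 14.7% were called, and the median member change was 0.52 on the log2 scale against 0.13 for all genes. In LNCaP95, 11 of 47 rose and 4 fell (17.6% of all genes rose, 10.1% fell, 27.7% called), with a median of 0.54 against 0.22. In 22Rv1, 1 of 46 rose and 2 fell (7.26% of all genes rose, 2.73% fell, 9.99% called). These counts depend on the scaling. With library sizes summed over the 4 tables, which raise the median change of all genes by 0.49 (LNCaP), 0.89 (LNCaP95) and 0.54 (22Rv1), the splits were 13 higher and 1 lower, 27 higher and 2 lower, and 10 higher and 0 lower.

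ADAMTS1, ABCC4 and TSC22D1, whose end sequences are printed above, rose in both LNCaP and LNCaP95. The ADAMTS1 downstream region (chr21:28197767-28207766, minus strand) had 11.4, 0 and 3.69 CPM in the control libraries and 46.9 to 195 CPM, median 113, in the knockdown libraries in LNCaP (log2 fold change 4.53, SE 0.55, adjusted p = 5.91e-12). In LNCaP95 it had 0, 3.68 and 0 CPM in the control libraries and 33.9 to 108 CPM, median 78.4, in the knockdown libraries, that is 1 control read and 251 knockdown reads, a ratio of 69.1 with a 95% counting interval of 12.3 to 2741. Its 3′ UTR reads were not called in either line (0.25 and -0.04 on the log2 scale). The TSC22D1 region (chr13:44997356-45007355, minus strand), into which a newer annotation (Gencode v44 on GRCh37) extends the gene, had 15.4, 11.04 and 3.15 CPM in the control libraries and 183 to 398 CPM, median 249, in the knockdown libraries in LNCaP95 (log2 fold change 4.73, SE 0.43, adjusted p = 5.36e-16), while its 3′ UTR reads fell by 0.40 on the log2 scale, a call lost without TMM factors and with CPSF1 sh1 alone. In LNCaP it had 3 control reads and 107 knockdown reads, a ratio of 13.3 with a 95% counting interval of 4.43 to 65.5. Of all TSC22D1 reads in LNCaP95, 0.206, 0.125 and 0.0484% lay downstream in the controls and 4.73 to 9.98% in the knockdown libraries. The ABCC4 region (chr13:95661784-95671783, minus strand) had 3.79, 25.7 and 40.6 CPM in the control libraries and 39.01 to 115 CPM, median 74.7, in the knockdown libraries in LNCaP (log2 fold change 1.70, SE 0.44, adjusted p = 0.00228) and 18.4, 22.1 and 3.15 CPM in the control libraries and 84.8 to 154 CPM, median 135, in the knockdown libraries in LNCaP95 (log2 fold change 3.16, SE 0.43, adjusted p = 4.05e-09). These intervals cover counting error only. The LNCaP call of ABCC4 downstream was lost without control library 1 and with CPSF1 sh1 alone.

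Other members rose downstream in LNCaP95. ARID5B had 6.14, 22.1 and 15.7 CPM in the control libraries and 79.7 to 170.5 CPM, median 147, in the knockdown libraries (log2 fold change 3.15, SE 0.43, adjusted p = 5.62e-09), on top of its rise in 3′ UTR reads. ACSL3 had 6.14, 29.4 and 9.44 CPM in the control libraries and 53.8 to 119 CPM, median 97.7, in the knockdown libraries (log2 fold change 2.62, SE 0.46, adjusted p = 3.11e-06) and SMS had 12.3, 29.4 and 12.6 CPM in the control libraries and 91.6 to 138 CPM, median 95.6, in the knockdown libraries (log2 fold change 2.53, SE 0.42, adjusted p = 8.17e-07). No knockdown library overlapped a control for these 3 genes. SEC24D, STK39, HPGD and SPCS3, a subunit of the signal peptidase, rose by 2.56, 1.31, 1.19 and 1.51 on the log2 scale. The SPCS3 call was lost with either shRNA alone and without control library 2 or 3 or CPSF1 sh1 library 2. That of SEC24D was lost without control library 1. AKAP12 had 0 downstream reads in the LNCaP95 controls and 24 in the knockdown libraries, at least 2.20-fold higher when the controls are set to a floor of 3 reads over the group. The AKAP12 call was lost in DESeq2, with CPSF1 sh1 alone and in 5 of 9 fits with 1 library left out. In LNCaP, GNAI3 rose with 37.9, 3.21 and 29.5 CPM in the control libraries and 33.5 to 135 CPM, median 103, in the knockdown libraries (log2 fold change 2.11, SE 0.42, adjusted p = 3.42e-05), and the newer annotation extends GNAI3 itself into that region. In LNCaP, 1 knockdown library each of GNAI3 and ABCC4 overlapped the controls. In 22Rv1, ABHD2 rose on 3 control reads and 82 knockdown reads, a ratio of 5.23 with a 95% counting interval of 1.73 to 25.9, and the call was lost in DESeq2, with the replicate block, with CPSF1 sh2 alone, without any 1 of the 3 control libraries and without CPSF1 sh1 library 1 or CPSF1 sh2 library 2.

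APPBP2, a cytoplasmic binding partner of the amyloid precursor protein, and FADS1 fell downstream in all 3 lines, and both regions hold another gene of the same strand. The APPBP2 region (chr17:58510221-58520220, minus strand) contains the pseudogene RPL12P38, a copy of the ribosomal protein gene RPL12. It had 8486, 6344 and 6087 CPM in the control libraries and 2373 to 3961 CPM, median 3520.2, in the knockdown libraries in LNCaP (log2 fold change -1.06, SE 0.19, adjusted p = 4.47e-06). In LNCaP95 it had 2156, 1589.8 and 1744 CPM in the control libraries and 427 to 997 CPM, median 647, in the knockdown libraries (log2 fold change -1.41, SE 0.23, adjusted p = 4e-07), and in 22Rv1 5140.3, 4174 and 4614 CPM in the control libraries and 2282 to 3575 CPM, median 2689, in the knockdown libraries (log2 fold change -0.83, SE 0.15, adjusted p = 2.04e-05). With summed library sizes the 22Rv1 call of APPBP2 was lost. The 3′ UTR of RPL12 itself had 3066 to 3363 CPM in LNCaP controls, 2032 to 2564 in those of 22Rv1 and 752 to 926 in those of LNCaP95, the same order of lines, and its log2 changes were -0.52, -0.70 and -0.33. The 3′ UTR reads of APPBP2 were not called in any line (0.46, 0.24 and -0.08). The part of RPL12 reads in the APPBP2 count was not tested.

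The FADS1 region (chr11:61556800-61566799, minus strand, 7562 bases counted) overlaps TMEM258 in the newer annotation. It had 277, 199 and 251 CPM in the control libraries and 102 to 180.2 CPM, median 116, in the knockdown libraries in LNCaP (log2 fold change -0.89, SE 0.24, adjusted p = 0.00395), 218, 155 and 264 CPM in the control libraries and 83.3 to 169.6 CPM, median 119, in the knockdown libraries in LNCaP95 (log2 fold change -0.77, SE 0.27, adjusted p = 0.0231) and 392, 431 and 507 CPM in the control libraries and 211 to 284 CPM, median 236, in the knockdown libraries in 22Rv1 (log2 fold change -0.94, SE 0.19, adjusted p = 0.000145). With summed library sizes the FADS1 calls were lost in all 3 lines and the LNCaP95 value became 0.11. The LNCaP95 call of FADS1 was also lost with CPSF1 sh1 alone and in 4 of 9 fits with 1 library left out. That in LNCaP was also lost without control library 1. TMEM258 3′ UTR reads changed by -0.37, -0.27 and 0.13 on the log2 scale and were not called. Whether TMEM258 transcripts enter the FADS1 count was not tested. HERC3 fell downstream in LNCaP95 as in its 3′ UTR (95.2, 62.6 and 148 CPM in the control libraries and 19.9 to 36.9 CPM, median 26.1, in the knockdown libraries, log2 fold change -1.94, SE 0.36, adjusted p = 9.67e-06), and FAM13A-AS1 lies on the same strand in that region. IQGAP2 fell in LNCaP (98.5, 103 and 66.4 CPM in the control libraries and 12.6 to 43.4 CPM, median 33.7, in the knockdown libraries, log2 fold change -1.45, SE 0.38, adjusted p = 0.00264), with F2R on the same strand there, as did CAMKK2 (68.2, 99.5 and 125 CPM in the control libraries and 21.3 to 51.01 CPM, median 42.7, in the knockdown libraries, log2 fold change -1.24, SE 0.35, adjusted p = 0.00672). With summed library sizes the LNCaP calls of IQGAP2 and CAMKK2 were lost, and that of CAMKK2 was also lost without control library 3. PIAS1, a SUMO ligase, was called lower in LNCaP95 (-0.68, adjusted p = 0.031) with overlapping libraries, and its direction flipped to 0.26 with summed library sizes.

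**Figure D5:**
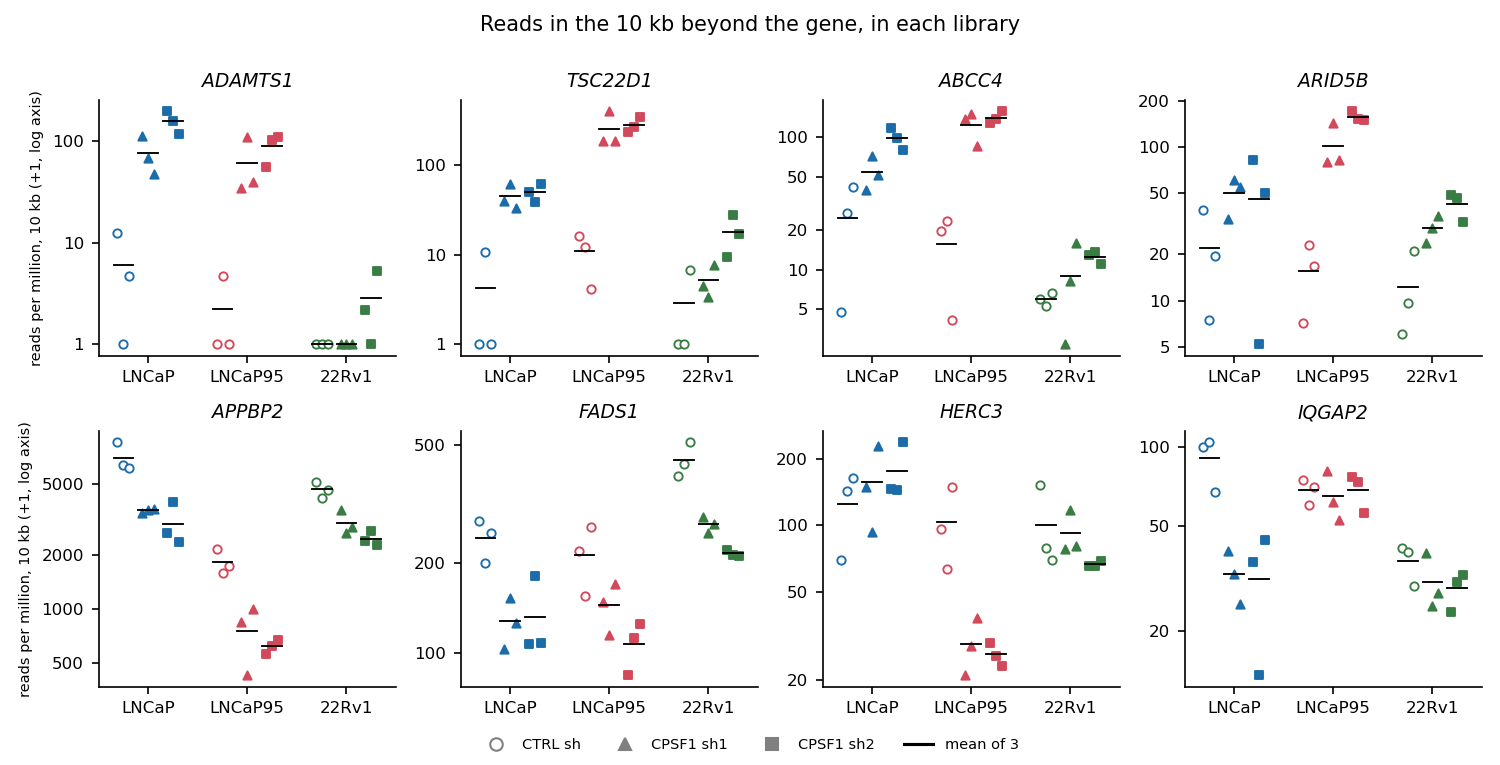
Level in CPM of the 10 kb downstream table (plus 1, log axis) for 8 members in each of the 27 libraries, by cell line and shRNA. Bars are means of 3. ADAMTS1, TSC22D1 and ABCC4 rose in LNCaP and LNCaP95, ARID5B in LNCaP95, APPBP2 and FADS1 fell in all 3 lines, HERC3 in LNCaP95 and IQGAP2 in LNCaP.

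Measured against the 3′ UTR reads of the same library, downstream use rose for 18 of 45 members in LNCaP95 and fell for 1, where 21.2% of all genes rose, 6.82% fell and 28% were called. The median member ratio rose by 0.99 on the log2 scale against 0.53 for all genes. In LNCaP the ratio rose for 3 of 46 and fell for 1 (8.39% of all genes rose, 1.95% fell, 10.3% called), and with summed library sizes it rose for 6 and fell for 0. In 22Rv1 it rose for 2 of 43 and fell for 0 (6.65% of all genes rose, 0.803% fell, 7.45% called). By role, the LNCaP95 rises covered 4 of 7 lipid genes tested, 5 of 10 secretory genes, 3 of 11 signalling genes and 3 of 8 transcription regulators. TSC22D1 changed most in LNCaP95 among members with more than 3 control reads (log2 ratio change 5.13, SE 0.45, adjusted p = 4.26e-10), ahead of ABCC4 (log2 ratio change 3.77, SE 0.48, adjusted p = 3.34e-07), SEC24D (log2 ratio change 3.07, SE 0.82, adjusted p = 0.00486) and SMS (log2 ratio change 2.83, SE 0.45, adjusted p = 1.16e-05). TNFAIP8, GPD1L, ZBTB10, PGM3, ABHD2, TPD52 and KRT18 were called by their ratio and not by their downstream reads alone. The downstream region counted for TPD52 (chr8:80860272-80869738, minus strand) does not adjoin its counted 3′ UTRs, which end at 80946803. MRPS28 lies on the same strand there in the newer annotation, and whether its transcripts enter the TPD52 count was not tested. In LNCaP the rises were in ADAMTS1 (log2 ratio change 4.28, SE 0.68, adjusted p = 4.99e-05), TSC22D1 (log2 ratio change 3.62, SE 0.74, adjusted p = 0.0011) and GNAI3 (log2 ratio change 2.09, SE 0.54, adjusted p = 0.00988). In 22Rv1 they were in ARID5B (log2 ratio change 1.86, SE 0.55, adjusted p = 0.0332) and ELOVL5 (log2 ratio change 1.52, SE 0.44, adjusted p = 0.0311). APPBP2 was the member whose ratio fell, in LNCaP (log2 ratio change -1.502, SE 0.31, adjusted p = 0.00121) and LNCaP95 (log2 ratio change -1.69, SE 0.32, adjusted p = 0.000132). Both calls were lost with summed library sizes.

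In all, 40 of the 54 members were called in 1 or more of the 3 tables and lines, and 14 in none, where 54% of the 18058 genes tested in 1 or more of them were called. These shares were not matched on read depth. The 14 were AZGP1, SORD, B4GALT1, LMAN1, UAP1, MAK, MERTK, PTK2B, RAB4A, ELK4, PA2G4, KRT18, KRT19 and MAP7. By table, 27 of 53 members tested were called in 3′ UTRs, 12 of them in 2 lines and 0 in all 3. Over all genes 36.6% were called there, 8% in 2 or more lines and 0.497% in all 3. In introns it was 22 of 52 members, 5 of them in 2 lines and 0 in all 3 (30.6%, 7.5% and 1.69% of all genes). In the 10 kb regions it was 19 of 50, 3 of them in 2 lines and 2, APPBP2 and FADS1, in all 3. The shares of all genes there were 32.2%, 11.2% in 2 or more lines and 3.37% in all 3. MERTK was below the filter in the 3′ UTRs of all 3 lines, with at most 14 reads in a library, and PA2G4 had 0 reads in its downstream region, of which 4961 bases were counted, in every library.

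A further 39 androgen response genes, among them KLK2 and KLK3, were counted for context. In 3′ UTRs 13 of 38 rose and 4 fell in LNCaP (8.24% of all genes rose, 10.1% fell). In LNCaP95, 6 of 38 rose and 12 fell (15.2% of all genes rose, 15.2% fell). In 22Rv1, 0 of 37 rose and 4 fell (0.678% of all genes rose, 0.791% fell). The median changes of these context genes were 0.40, -0.14 and -0.07 on the log2 scale. In the 10 kb regions 9 of 33 rose and 1 fell in LNCaP (9.52% of all genes rose, 5.2% fell). In LNCaP95, 10 of 37 rose and 3 fell there (17.6% of all genes rose, 10.1% fell). In 22Rv1, 6 of 35 rose and 0 fell there (7.26% of all genes rose, 2.73% fell).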

How the data were processed

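Poly(A)-ClickSeq (PAC-seq) was performed on 27 libraries of 3 human prostate cancer cell lines, 3 for each line and shRNA. The 4 tables deposited by the authors hold raw counts of reads for each gene, in 3′ UTRs extended by 300 bases, introns, CDS and the 10 kb beyond each gene with same-strand exons removed, taken from Ensembl GRCh37 protein-coding genes. They trimmed and mapped the reads (HISAT2 2.1.0, per the submitters' processing notes) and counted the 3′-most base of each read on the strand of its gene with featureCounts (Subread 2.0.3, per the same notes). Reads from transcripts that enter a neighbouring gene are therefore counted for that neighbour's region, and PAC-seq reads carry no molecular identifiers in these counts, so counting intervals cover counting error only. Every column matched a sample title, and 0 columns were left over. Replicate numbers came from the titles.

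Each table was scaled with TMM factors, and genes above a mean of 2 CPM over the libraries of a test were fitted with the quasi-likelihood test of edgeR 4.0.16 in R 4.3.3. Benjamini-Hochberg adjustment ran over all genes tested, and the members were then read off at an adjusted p below 0.05. Within a line, 3 control libraries were compared with the 6 knockdown libraries. Lines were compared over the 9 control libraries, and knockdown effects between lines by a line-by-knockdown term over 27 libraries. Ratios to the 3′ UTR were tested with a region-by-knockdown term that kept each library as a block. The smallest p that an exact permutation of 3 against 6 libraries allows is 0.0119, two-sided. The scripts were tested on simulated counts with 200 changed genes. The members and lists were chosen with earlier results of these data known. One gene of 2 of the context lists is not reported here.

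Values per library were given for the 3 highest and 3 lowest called changes in each line and table, members called in all lines or in opposite directions, the 3 largest differences between lines, and the 4 highest and 4 lowest called differences between control lines, and for ratios the 3 largest per line. A few other called members were added after their values were seen. Alternatives were DESeq2 1.42.0, no TMM factors, library sizes summed over the 4 tables, no filter or a strict filter, all 27 libraries in the fit, the replicate block, each shRNA alone, and each library left out. CDS counts were tested only in the closing section, and elsewhere they entered only the totals over the 4 tables. Poly(A) signal hexamers were read from the GRCh37 genome at the annotated gene ends.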

Additional observations from a re-analysis of the deposited data

Results flagged for a closer look

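The change of 3′ UTR reads after knockdown differed between LNCaP95 and LNCaP for 18 members in edgeR's line-by-knockdown test. On the log2 scale, as LNCaP95 minus LNCaP, the difference was -2.66 for HERC3, -1.96 for MAF, -1.65 for GPD1L, -1.55 for ZBTB10, -1.43 for SAT1, -1.30 for ELL2, -1.21 for ACSL3 and -1.09 for ELOVL5. It was -0.97 for TNFAIP8, -0.91 for STK39, -0.89 for ABCC4, -0.76 for SMS, -0.69 for GNAI3, -0.63 for KRT8, -0.60 for ABHD2 and -0.57 for DBI. It was 1.13 for ARID5B and 1.05 for CAMKK2. As 22Rv1 minus LNCaP, it was -2.16 for ELL2, -1.99 for MAF, -1.52 for HERC3, -1.08 for SLC26A2, -1.07 for ZBTB10, -0.99 for ACSL3 and -0.56 for STK39, and 0.89 for ZMIZ1 and 0.71 for ABHD2. As 22Rv1 minus LNCaP95, it was -1.80 for ARID5B and -0.86 for ELL2, and 1.40 for GPD1L, 1.36 for SAT1, 1.31 for ABHD2, 0.87 for TPD52 and 0.48 for ZBTB10. The last was lost in 14 of 27 fits with 1 library left out, without TMM factors, without a filter and with the replicate block, and that of TPD52 without TMM factors.

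Reads in coding exons, which no comparison of the report used, changed after knockdown for some members. In LNCaP the log2 change was 1.45 for ELL2, 0.75 for ARID5B, 0.49 for PA2G4 and -1.89 for AKAP12, where 7.1% of all genes were called. In LNCaP95 it was 0.78 for ARID5B, -0.80 for LIFR, -0.84 for ABCC4, -1.42 for SAT1 and -1.83 for ELOVL5 (12.5% of all genes called), and in 22Rv1 it was 0.99 for AKAP12 (1.01% called).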

How the results depend on the processing

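Over all results, 92 of the counts from other settings lay within 1.5 times the count of the report and 22 did not. With library sizes summed over the 4 tables, the 10 kb counts rose to 14 (LNCaP), 29 (LNCaP95) and 10 (22Rv1), the changed 10 kb ratios to 32 in LNCaP95 and 15 in 22Rv1, and the changed intron ratios went to 4 in LNCaP and 4 in LNCaP95. FADS1 in the LNCaP95 10 kb table reversed to 0.11 and PIAS1 there to 0.26. The cause was not tested. In the 22Rv1 3′ UTR table, where 1 member was called, DESeq2 called 6, no filter 2, no TMM factors 0 and CPSF1 sh1 alone 0. CPSF1 sh1 alone gave 13 in LNCaP95 3′ UTRs, 8 in LNCaP95 introns, 1 in 22Rv1 introns, 11 changed 10 kb ratios and 3 changed intron ratios in LNCaP95, and 0 changed 10 kb ratios in 22Rv1. CPSF1 sh2 alone gave 5 in LNCaP introns, 1 changed intron ratio in LNCaP and 6 in LNCaP95, and 4 changed 10 kb ratios in 22Rv1. These fits hold fewer libraries.

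The replicate block gave 2 calls in 22Rv1 3′ UTRs in place of 1, and counts within 1.5 times elsewhere. It lost 5 single calls after knockdown, each given beside its value. Deviations of same-numbered libraries correlated from -0.35 to 0.54 with mixed signs, so the numbers were not taken to pair the libraries. In 22Rv1 the CTRL sh and CPSF1 sh1 pairs correlated by 0.54, 0.36 and 0.17 and the CTRL sh and CPSF1 sh2 pairs by -0.24, -0.23 and 0.03. With 1 library left out at a time, counts ran from 11 (without LNCaP CTRL sh replicate 1) to 21 in LNCaP 3′ UTRs, from 5 (the same library) to 13 in LNCaP introns and from 0 to 3 in 22Rv1 3′ UTRs. Changed intron ratios ran from 0 (without LNCaP CTRL sh replicate 2) to 3 in LNCaP and from 4 (without LNCaP95 CTRL sh replicate 3) to 11 in LNCaP95, changed 10 kb ratios from 0 to 4 in 22Rv1, and differences between 22Rv1 and LNCaP from 5 (without 22Rv1 CTRL sh replicate 2) to 13. Of the single calls, 2754 were kept and 300 lost over these fits, and 1325 kept and 133 lost under the other settings, beside the 2 that reversed. Depth limited some 10 kb values, since AKAP12 in LNCaP95 had 0 control reads there and ABHD2 in 22Rv1 had 3.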
